A study of Rattus norvegicus with 18 samples.

Results

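Senexin A at 50 µM, given alone, was compared with Vehicle across all genes in cultured ventricular myocytes of newborn rats. The comparison took 6 of the 18 libraries in the study, which were chosen by their labels alone: 3 of cultures given 50 µM Senexin A without phenylephrine (PE), and 3 of Vehicle cultures. Further groups of 3 libraries served for comparisons of dose and of hormone background, namely 10 µM Senexin A alone, 10 µM PE with 50 µM Senexin A, and 10 µM PE alone. The last group, 10 µM PE with 10 µM Senexin A, was not compared here. Its 3 libraries entered the choice of rows, the fit and the checks of depth and replicate number. All cultures came from Wistar rats at postnatal day 3, had AraC for 48 h and no serum for 24 h, and then 48 h of treatment with the medium renewed at 24 h. AraC is a nucleoside analogue that kills dividing cells and is used to limit the growth of fibroblasts in such cultures. The labels do not say whether the 3 libraries of a group came from separate isolations, so p-values measure only the spread between these libraries, which may be technical.

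Senexin A is an inhibitor of CDK8 and of its paralog CDK19, the kinases of the Mediator complex, which links transcription factors to RNA polymerase II. The kinase joins cyclin C, MED12 and MED13 in a detachable module of Mediator. In human cell lines the kinase is known as a coregulator of serum-response, NF-kB and STAT genes. In the mouse heart, MED13 is known to modulate nuclear receptor and metabolic genes. Another system met often in the data below is the integrated stress response, in which kinases that sense stress phosphorylate the initiation factor eIF2, general translation slows, and the transcription factor ATF4 is translated and turns on genes for amino acid supply.

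Polyadenylated RNA was measured as FPKM, a count of fragments scaled by transcript length and by the mapped fragments of the library. Summed FPKM per library ran from 755249 to 826406 at 50 µM and from 610324 to 660958 in Vehicle, and 9742 to 9866 rows at 50 µM and 10007 to 10063 rows in Vehicle reached 1 FPKM. Total reads per library were not given, so the depth is unknown. Low values put all libraries within 0.833 to 1.111 times the depth of Vehicle replicate 2, but only ratios near 1 were searched. That estimate could therefore not show a large difference in depth, and for 50 µM replicate 1 it rested on 75 of 627 rows. Libraries of 1 group correlated with r from 0.988 to 0.9899 at 50 µM and from 0.9893 to 0.9923 in Vehicle. The labelled cell type was checked against its markers. The 11 cardiomyocyte markers summed to 39954 to 62118 FPKM at 50 µM and to 38112 to 53472 FPKM in Vehicle. Markers of other cells were also present. Fibroblast markers summed to 1006 to 1356 FPKM at 50 µM and 1877 to 3152 FPKM in Vehicle, and smooth muscle and pericyte markers to 1837 to 2871 FPKM at 50 µM and 4557 to 6168 FPKM in Vehicle. Endothelial markers summed to 35.2 to 55.8 FPKM at 50 µM and 57.9 to 67.3 FPKM in Vehicle. Eng made up most of that sum, with 21 to 34.4 FPKM at 50 µM and 37.5 to 48 FPKM in Vehicle. Of the others, Esam, Egfl7, Cdh5, Pecam1, Tie1 and Vwf overlapped between the groups, and Tek, Kdr and Emcn were lower in every library at 50 µM. Macrophage markers (32.1 to 183 FPKM at 50 µM, 39.8 to 121 FPKM in Vehicle) and epicardial markers (56.5 to 125 FPKM at 50 µM, 54.4 to 67.6 FPKM in Vehicle) overlapped.

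Transcript levels changed for most of the genes tested. Of 10478 genes tested, 6361 (60.7%) passed at a limma adjusted p under 0.05, of which 3192 rose (30.5% of genes tested) and 3169 fell (30.2%). Counts of list members below are to be read beside these shares. Differences here are of mean log2(FPKM + 1), 50 µM minus Vehicle, a scale that understates the change of genes at low level. They are given with their standard error (SE), whereas FPKM means carry the SD of 3 libraries. By this measure 534 genes were at least 2-fold higher (5.1%) and 747 at least 2-fold lower (7.13%). The 3 libraries at 50 µM lay wholly above those of Vehicle for 3415 genes (32.6%) and wholly below for 3370 (32.2%). The median difference over all genes tested was -0.007. When a change of more than 2-fold was itself required by the test, 403 genes passed, 180 higher and 223 lower.

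**Figure D1:**
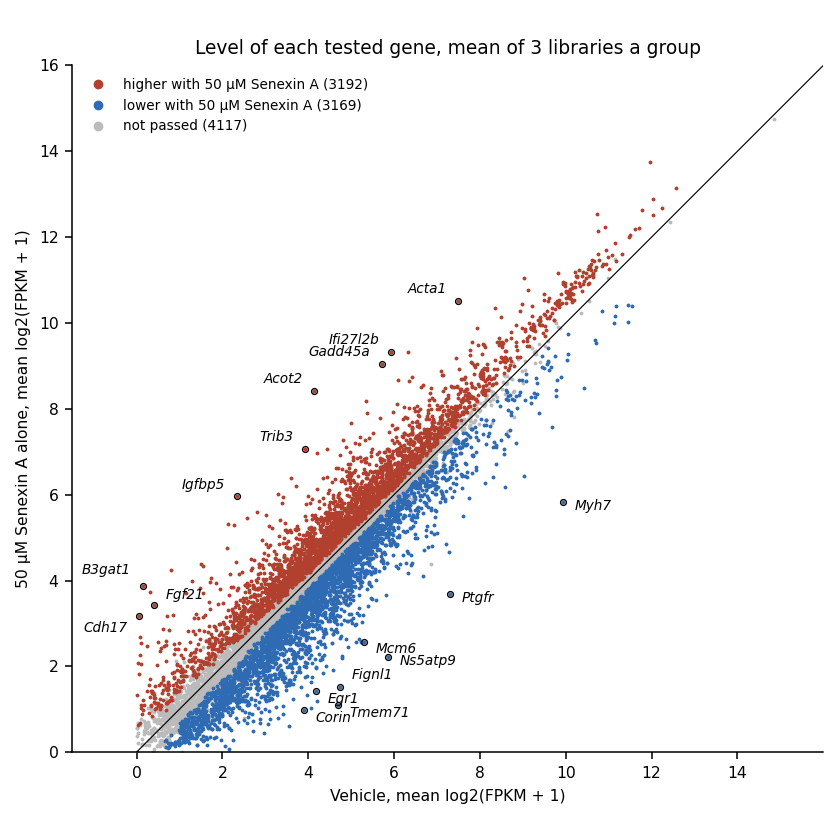
Mean log2(FPKM + 1) of each tested gene, 50 µM Senexin A alone on the vertical axis and Vehicle on the horizontal axis, 3 libraries each; red and blue points passed at a limma adjusted p under 0.05 and grey points did not. The 3192 genes that rose and the 3169 that fell lie on either side of the line of equal level over its whole length, with Acot2 and Myh7 among the farthest from it.

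The targets of the drug were measured first. Cdk8 had 12.6, 13.9 and 12 FPKM at 50 µM, against 13.5, 12.6 and 14.5 FPKM in Vehicle, and its difference was -0.07 ± 0.11 (limma adjusted p = 0.611). The groups overlapped. Cdk19 had 7.57, 4.34 and 7.07 FPKM at 50 µM, against 7.87, 8.05 and 8.9 FPKM in Vehicle, below Vehicle in every library, with a difference of -0.37 ± 0.17 (limma adjusted p = 0.0711). It passed with the replicate number as a block (limma adjusted p = 0.00998) and without 50 µM replicate 1 (adjusted p = 0.0284). Ccnc, which encodes cyclin C, had 19, 23.4 and 20.2 FPKM at 50 µM, against 15.9, 16.4 and 17 FPKM in Vehicle. All 3 libraries at 50 µM stood above all 3 of Vehicle, and the gene rose by 0.32 ± 0.09 (limma adjusted p = 0.00575). The scaffold Med13 averaged 7.4 ± 1.18 FPKM at 50 µM and 9.45 ± 0.725 FPKM in Vehicle and had overlapping groups and a difference of -0.32 ± 0.11 (limma adjusted p = 0.0191). This call was lost with quantile normalization, with the compared groups fitted alone, and without 50 µM replicate 1, 50 µM replicate 2 or Vehicle replicate 3. Med12, which activates the kinase, averaged 7.2 ± 0.133 FPKM at 50 µM and 7.55 ± 0.635 FPKM in Vehicle and had a difference of -0.06 ± 0.08 (limma adjusted p = 0.553), which turned to 0.11 under quantile normalization. An inhibitor of kinase activity need not alter these transcripts, so they do not check the treatment.

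The largest rises belonged to genes of several kinds. The 12 leading rises and 12 leading falls were taken only from genes whose groups did not overlap. Their lack of overlap follows from that rule and is no added result. Acot2, a mitochondrial acyl-CoA thioesterase, had 373, 300.3 and 352 FPKM at 50 µM, against 19.5, 19.2 and 12.2 FPKM in Vehicle, a difference of 4.28 ± 0.17 (limma adjusted p = 1.0e-10). No library of Vehicle came near any library at 50 µM. Acot2 has a near-identical neighbour, Acot1, with which reads can be shared, and Acot1 rose as well by 1.54 ± 0.14 (limma adjusted p = 2.4e-07). Igfbp5, a binding protein of insulin-like growth factors, had 91.9, 33.3 and 74.5 FPKM at 50 µM, against 3.74, 2.25 and 7.47 FPKM in Vehicle, and rose by 3.62 ± 0.48 (limma adjusted p = 8.8e-06). Its 3 libraries at 50 µM differed widely among themselves but all lay above Vehicle. Gadd45a, a growth arrest gene induced by DNA damage and by ATF4, had 468, 551 and 572 FPKM at 50 µM, against 55.1, 48.4 and 52 FPKM in Vehicle, among the tightest of the large rises, with a difference of 3.33 ± 0.12 (limma adjusted p = 2.5e-11). Trib3, a pseudokinase target of ATF4, had 123, 127 and 150.0 FPKM at 50 µM, against 12.8, 9.05 and 24 FPKM in Vehicle, a rise of 3.15 ± 0.41 (limma adjusted p = 8.1e-06). Fgf21, a hormone of the starvation and mitochondrial stress responses, had 9.9, 7.82 and 12.1 FPKM at 50 µM, against 0.552, 0.489 and 0.01 FPKM in Vehicle, a rise of 3.03 ± 0.19 (limma adjusted p = 4.0e-09). Vehicle replicate 3 was at the floor of the table, 0.01 FPKM, and no Vehicle library reached 1 FPKM.

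Skeletal alpha actin, Acta1, is a member of the fetal muscle programme of the heart, and had 1333, 1683 and 1396 FPKM at 50 µM, against 219, 169.8 and 155 FPKM in Vehicle. Every library at 50 µM was several times above every Vehicle library, and the gene rose by 3.02 ± 0.18 (limma adjusted p = 2.9e-09). The other leading rises were B3gat1, a glucuronyltransferase (3.74 ± 0.37, limma adjusted p = 4.6e-07), Trim50, a RING-type ubiquitin ligase (3.44 ± 0.20, adjusted p = 2.9e-09), Pcp4, a small calmodulin-binding protein (3.44 ± 0.41, adjusted p = 3.0e-06), and Ifi27l2b, an interferon-inducible 27-like protein (3.39 ± 0.31, adjusted p = 1.7e-07). Tmeff1, a transmembrane protein with follistatin-like modules (3.17 ± 0.21, limma adjusted p = 9.7e-09), and Cdh17, a cadherin of intestine (3.10 ± 0.18, adjusted p = 2.9e-09), completed the 12. B3gat1 and Cdh17 had 13.9 ± 2.63 FPKM at 50 µM and 0.105 ± 0.0632 FPKM in Vehicle, and 8.06 ± 1.33 FPKM at 50 µM and 0.047 ± 0.0206 FPKM in Vehicle. Both were near 0 in Vehicle, so their differences on the log2(FPKM + 1) scale understate the change.

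**Figure D2:**
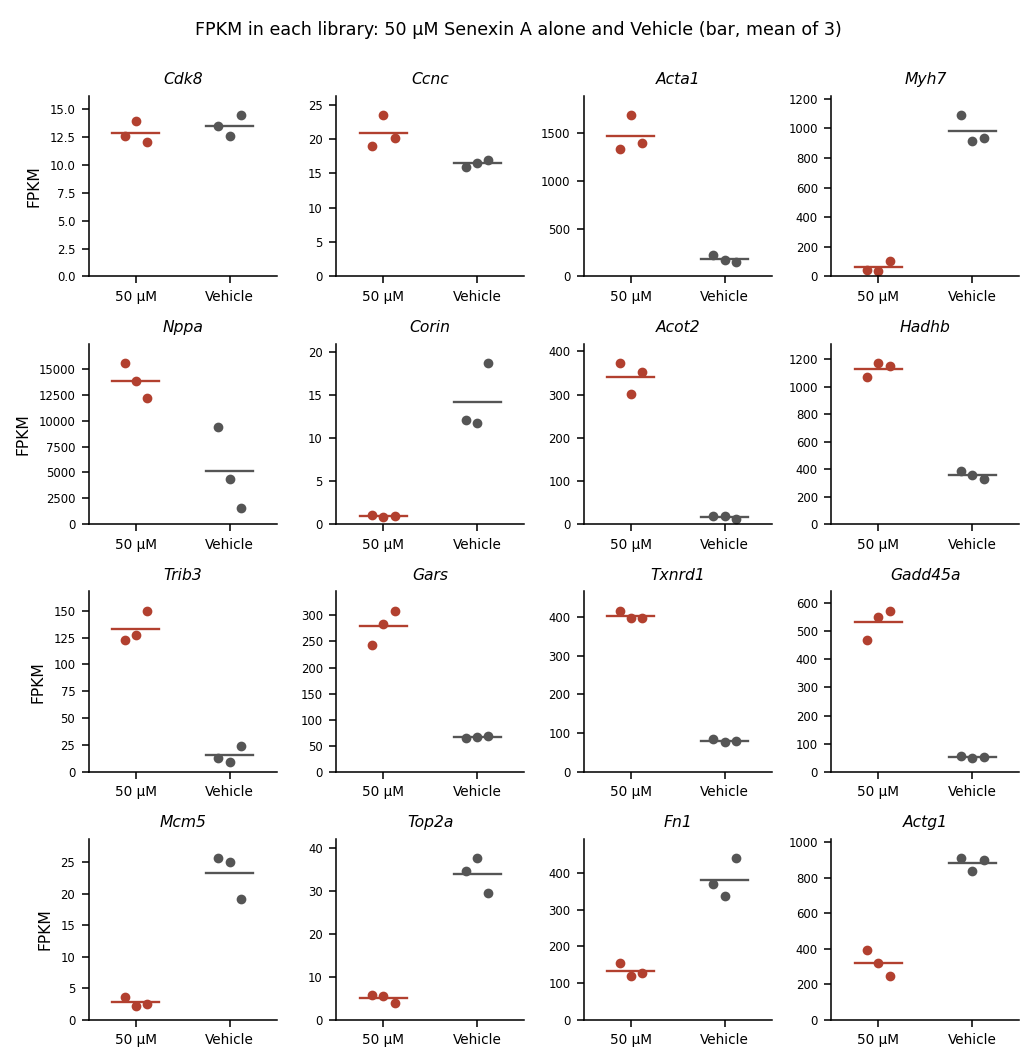
FPKM of 16 genes in each library, 50 µM Senexin A alone (red) left of Vehicle (grey); points are libraries, bars are means of 3, and each vertical axis starts at 0. Apart from Cdk8, the libraries of the groups do not overlap for any gene shown, and Nppa has a wide spread in Vehicle, from 1535 to 9359 FPKM.

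Among the falls, Myh7, the slow beta myosin heavy chain, led with 44.4, 37.1 and 104 FPKM at 50 µM, against 1089, 916 and 935 FPKM in Vehicle. The highest library at 50 µM was far below the lowest of Vehicle, and the difference was -4.11 ± 0.50 (limma adjusted p = 3.3e-06). Ptgfr, the receptor of prostaglandin F2 alpha, a hypertrophic agonist for rat cardiomyocytes, had 8.83, 14.8 and 12.6 FPKM at 50 µM, against 143, 168 and 159.9 FPKM in Vehicle, a difference of -3.62 ± 0.19 (limma adjusted p = 1.1e-09). Corin, the protease that turns the precursor of atrial natriuretic peptide into the active hormone, had 1.09, 0.882 and 0.923 FPKM at 50 µM, against 12.1, 11.7 and 18.7 FPKM in Vehicle, and changed by -2.92 ± 0.24 (limma adjusted p = 5.3e-08). All 3 libraries at 50 µM were close to 1 FPKM. Egr1, an immediate early transcription factor, had 2.66, 0.841 and 1.86 FPKM at 50 µM, against 24.9, 6.6 and 29.9 FPKM in Vehicle, a change of -2.77 ± 0.56 (limma adjusted p = 4.8e-04). Replicate 2 was lowest in both groups, and the groups did not overlap.

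Genes of replication and repair filled much of the rest of this list. Mcm6 and Mcm5, subunits of the replicative helicase, changed by -2.72 ± 0.16 (limma adjusted p = 3.0e-09) and -2.68 ± 0.14 (adjusted p = 1.3e-09). Fignl1, a recombination ATPase, changed by -3.23 ± 0.25 (limma adjusted p = 4.0e-08), and Ns5atp9, which encodes a PCNA-binding factor, by -3.64 ± 0.24 (adjusted p = 6.6e-09); Ns5atp9 shares its locus in the table with Trip4 and is uncertain for that reason. Nkain4, a partner of the sodium pump, changed by -3.05 ± 0.25 (limma adjusted p = 5.7e-08), Nsg2, an endosomal protein of neurons, by -3.02 ± 0.19 (adjusted p = 5.7e-09), Tmem71 by -3.59 ± 0.41 (adjusted p = 2.1e-06) and Atp6ap1l by -2.94 ± 0.20 (adjusted p = 9.2e-09).

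The fetal and hypertrophic genes did not move as a block. Of 16 tested 8 rose and 4 fell, beside 30.5% and 30.2% of all tested genes, and the median difference was 0.52. With no filter on low values 5 passed as higher, and under quantile normalization the median was 0.10. Nppa, the atrial natriuretic peptide, had 15582, 13803 and 12171 FPKM at 50 µM, against 9359, 4409 and 1535 FPKM in Vehicle. The groups did not overlap, but the Vehicle libraries spread widely, and the rise of 1.79 ± 0.45 (limma adjusted p = 0.0028) was lost with no filter on low values (adjusted p = 0.0868). Nppb, the B-type peptide, had 1254, 1838 and 1147 FPKM at 50 µM, against 923, 468 and 295 FPKM in Vehicle and rose by 1.46 ± 0.33 (limma adjusted p = 0.00107). Rcan1, a feedback inhibitor of calcineurin, averaged 363 ± 68.7 FPKM at 50 µM and 116 ± 14.4 FPKM in Vehicle, a rise of 1.63 ± 0.14 (limma adjusted p = 1.2e-07). Tnni1, the slow skeletal troponin I of fetal heart, averaged 203 ± 96.8 FPKM at 50 µM and 831 ± 167 FPKM in Vehicle and changed by -2.11 ± 0.35 (limma adjusted p = 7.5e-05), the same direction as Myh7. Ankrd1, a stretch-responsive titin-binding protein, averaged 2931 ± 815 FPKM at 50 µM and 2297 ± 257 FPKM in Vehicle. Its groups overlapped and its difference of 0.32 ± 0.17 (limma adjusted p = 0.12) turned to -0.20 under quantile normalization and passed with the block (adjusted p = 0.0303).

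The myosin heavy chains ran opposite ways. Myh6, the fast alpha chain of the adult rat ventricle, had 819, 1341 and 776 FPKM at 50 µM, against 397, 240.4 and 149 FPKM in Vehicle, a rise of 1.96 ± 0.69 (limma adjusted p = 0.0215), beside the loss of Myh7 given above. No library at 50 µM was below any of Vehicle. The call for Myh6 was lost with no filter on low values (limma adjusted p = 0.0653), without 50 µM replicate 2 (adjusted p = 0.0752) and without Vehicle replicate 3 (adjusted p = 0.0871). Both genes are near-identical over long stretches and reads may have been split between them, so their values are uncertain. The same holds for the actins: Acta1 rose while the smooth muscle actin Acta2 changed by -1.12 ± 0.18 (limma adjusted p = 5.6e-05) and the cytoplasmic gamma actin Actg1 by -1.49 ± 0.11 (adjusted p = 3.1e-08).

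In the sarcomere list, 5 of 23 tested rose, 8 fell and 10 did not pass, shares near those over all genes. The thin filament proteins tropomyosin (Tpm1) and cardiac troponin I (Tnni3) rose by 0.85 ± 0.11 (limma adjusted p = 7.4e-06) and 0.78 ± 0.14 (adjusted p = 1.5e-04), as did the ventricular essential light chain Myl3 by 0.84 ± 0.14 (adjusted p = 7.4e-05) and the filamin Flnc by 0.75 ± 0.17 (adjusted p = 0.00136). Synpo2l and Csrp3, both Z-disc proteins, changed by -1.49 ± 0.20 (limma adjusted p = 1.0e-05) and -0.87 ± 0.20 (adjusted p = 0.00108). The median was -0.17, or -0.38 under quantile normalization. The regulatory light chain Myl2, the transcript with the highest mean FPKM in both groups, averaged 28106 ± 7448 FPKM at 50 µM and 29979 ± 6446 FPKM in Vehicle, with overlapping groups. Its difference of -0.10 ± 0.23 (limma adjusted p = 0.721) turned positive without 50 µM replicate 1 or without Vehicle replicate 1.

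Of 18 calcium handling genes 7 fell and 3 rose, beside 30.2% lower and 30.5% higher of all tested genes, with 1 higher under quantile normalization and 11 lower with the block. S100a1, a calcium sensor that boosts the calcium pump, averaged 35.6 ± 8.18 FPKM at 50 µM and 107 ± 13.4 FPKM in Vehicle, a change of -1.57 ± 0.14 (limma adjusted p = 1.3e-07). Trdn and Hrc, partners of calsequestrin at the release channel, changed by -1.12 ± 0.12 (limma adjusted p = 1.0e-06) and -0.95 ± 0.15 (adjusted p = 3.8e-05). Jph2, which holds the sarcoplasmic reticulum to the T-tubule, went the other way by 1.17 ± 0.13 (limma adjusted p = 1.3e-06). The pump itself, Atp2a2 (SERCA2), had 934, 1436 and 916 FPKM at 50 µM, against 709, 653 and 593 FPKM in Vehicle, with all libraries at 50 µM above Vehicle. Its rise of 0.72 ± 0.19 (limma adjusted p = 0.00407) was lost under quantile normalization (adjusted p = 0.102).

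Ion channels and gap junction genes had 11 falls and 6 rises in 19 tested, beside 30.2% lower and 30.5% higher of all tested genes. The median was -0.41. Gja5, the connexin of atria and of the conduction system, had 6.46, 3.07 and 5.85 FPKM at 50 µM, against 38.5, 33.1 and 38.4 FPKM in Vehicle, a change of -2.67 ± 0.27 (limma adjusted p = 4.5e-07). Hcn4, the main pacemaker channel, averaged 9.12 ± 1.93 FPKM at 50 µM and 24.2 ± 2.39 FPKM in Vehicle and changed by -1.33 ± 0.20 (limma adjusted p = 3.4e-05), whereas Hcn2, the ventricular pacemaker channel, rose by 1.21 ± 0.17 (adjusted p = 1.7e-05). Kcnj12, an inward rectifier potassium channel, changed by -1.44 ± 0.16 (limma adjusted p = 1.5e-06). Kcnk3, a background potassium channel, rose by 1.48 ± 0.21 (limma adjusted p = 1.6e-05), and Kcne1, the beta subunit of the slow delayed rectifier, averaged 4.95 ± 1.44 FPKM at 50 µM and 0.075 ± 0.113 FPKM in Vehicle, a rise of 2.45 ± 0.42 (adjusted p = 1.1e-04). The libraries of the 6 genes did not overlap between groups.

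Of 15 cardiac transcription factors 4 rose and 6 fell, shares near the 30.5% and 30.2% of all tested genes. Hopx, a homeodomain-only cofactor, averaged 85.6 ± 9.15 FPKM at 50 µM and 29.7 ± 8.23 FPKM in Vehicle, a rise of 1.52 ± 0.19 (limma adjusted p = 5.9e-06). Irx4, the ventricular Iroquois factor, averaged 17.8 ± 5.14 FPKM at 50 µM and 44.6 ± 9.6 FPKM in Vehicle and changed by -1.30 ± 0.20 (limma adjusted p = 4.1e-05). Hand1 rose by 0.92 ± 0.21 (limma adjusted p = 0.00114), and Zfpm2, the cofactor of GATA4, changed by -0.93 ± 0.08 (adjusted p = 8.5e-08). The core factors Gata4 and Nkx2-5 averaged 117 ± 16.4 FPKM at 50 µM and 112 ± 6.89 FPKM in Vehicle, and 117 ± 8.86 FPKM at 50 µM and 112 ± 5.2 FPKM in Vehicle. Neither passed (limma adjusted p = 0.57 and 0.596), their differences of 0.06 and 0.06 turned negative under quantile normalization, and that of Gata4 also without 50 µM replicate 2.

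Genes of mitochondrial energy supply rose almost as a body. In oxidative phosphorylation 29 of 32 tested subunits rose, against 30.5% of all genes, none fell, and the median difference was 0.73. Under quantile normalization the median was 0.40 and 1 subunit passed as lower. Cox6a2, the heart isoform of a cytochrome oxidase subunit, had 4167, 4965 and 4553 FPKM at 50 µM, against 2246, 1634 and 1364 FPKM in Vehicle. All 3 libraries at 50 µM exceeded all 3 of Vehicle, and the gene rose by 1.41 ± 0.17 (limma adjusted p = 2.5e-06). Cycs (cytochrome c), Sdhb (complex II), Cyc1 (complex III) and Ndufs7 (complex I) rose by 1.33, 1.24, 1.17 and 1.15, each with a limma adjusted p of at most 8.7e-06.

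Entry of pyruvate and the tricarboxylic acid cycle followed, with 15 of 23 genes higher, 1 lower and a median of 0.53. Under quantile normalization 3 were lower and the median was 0.24. Mpc1 and Mpc2, which together form the pyruvate carrier of the inner membrane, rose by 1.75 ± 0.24 (limma adjusted p = 1.4e-05) and 0.92 ± 0.21 (adjusted p = 0.0011). Mpc1 had 540.0, 775 and 471 FPKM at 50 µM, against 213, 178 and 135 FPKM in Vehicle. Dld, dihydrolipoamide dehydrogenase, rose by 0.94 ± 0.13 (limma adjusted p = 9.8e-06).

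Fatty acid oxidation and other targets of PPAR receptors had 20 rises and 5 falls in 32 genes, or 8 falls under quantile normalization. Hadhb, the beta subunit of the mitochondrial trifunctional protein, had 1068, 1172 and 1148 FPKM at 50 µM, against 385, 357 and 329 FPKM in Vehicle, a rise of 1.66 ± 0.10 (limma adjusted p = 2.9e-09). The libraries within each group lay close together. Fabp3, the fatty acid carrier of heart, averaged 5978 ± 1102 FPKM at 50 µM and 1716 ± 394 FPKM in Vehicle and rose by 1.81 ± 0.21 (limma adjusted p = 2.5e-06); it shares its locus in the table with Zcchc17. Ucp3, a mitochondrial carrier regulated by fatty acids, averaged 3.83 ± 0.737 FPKM at 50 µM and 0.0644 ± 0.0386 FPKM in Vehicle, a rise of 2.17 ± 0.17 (limma adjusted p = 3.1e-08). Plin5, which ties lipid droplets to mitochondria, rose by 1.60 ± 0.17 (limma adjusted p = 8.0e-07).

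Nuclear receptors and their coactivators are known as regulators of such genes, and their part in the rises above was not tested. Of 20 receptors and coactivators 10 rose and 4 fell, or 2 fell without 50 µM replicate 1, beside 30.5% higher and 30.2% lower of all tested genes. Esrra and Esrrb, the estrogen-related receptors alpha and beta, rose by 1.35 ± 0.08 (limma adjusted p = 2.0e-09) and 1.63 ± 0.18 (adjusted p = 1.1e-06), and Ppara, the fatty acid receptor, by 1.30 ± 0.13 (adjusted p = 5.4e-07). Esrra had 115, 122 and 132 FPKM at 50 µM, against 48.5, 47.7 and 46.8 FPKM in Vehicle, with narrow groups far apart. It shares its locus in the table with Trmt112. Ppargc1a, the coactivator PGC-1 alpha, averaged 15.6 ± 6.15 FPKM at 50 µM and 15.5 ± 1.64 FPKM in Vehicle and did not pass (limma adjusted p = 0.821), with a difference of -0.06 that turned positive without 50 µM replicate 1 or Vehicle replicate 3.

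Glucose uptake and glycolysis had 17 higher and 3 lower of 25. Hk2, the insulin-responsive hexokinase, averaged 36.7 ± 2.38 FPKM at 50 µM and 8.03 ± 2.11 FPKM in Vehicle, a rise of 2.09 ± 0.23 (limma adjusted p = 1.4e-06). Slc2a1, the basal glucose transporter GLUT1, rose by 1.26 ± 0.12 (limma adjusted p = 3.8e-07) and Pfkp, a phosphofructokinase, by 1.29 ± 0.19 (adjusted p = 2.7e-05). Aldoc, the brain isoform of aldolase, changed by -1.90 ± 0.19 (limma adjusted p = 5.7e-07). In sterol and fatty acid synthesis 13 of 28 rose and 1 fell, but without 50 µM replicate 1 the rises numbered 22. Scd1, which desaturates stearate, had 16, 33.8 and 64.9 FPKM at 50 µM, against 16.1, 10.5 and 12.5 FPKM in Vehicle. Its groups overlapped, and the rise was 1.29 ± 0.35 (limma adjusted p = 0.00439). Squalene epoxidase, Sqle, rose by 0.88 ± 0.15 (limma adjusted p = 1.3e-04).

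Most genes in the lists of regulators, enzymes, transporters and synthetases of the integrated stress response rose, while 3 kinases that start it fell. Of 21 ATF4 and CHOP genes tested 16 rose, 3 fell, and the median was 1.46. Downstream, 13 of 16 enzymes of amino acid and folate metabolism rose (median 1.56), 11 of 16 amino acid transporters (median 0.55, with 2 lower, or 4 with the block) and all 20 cytosolic aminoacyl-tRNA synthetases tested (median 1.23). Among genes with at least 5 FPKM in 3 libraries the median of the transporters was 1.00.

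Promoters of 3 of these genes are shown for a short word that some members of these lists carry. ATF4 binds with C/EBP proteins at a composite element, here searched as TGATGNAA on both strands from 250 bases before to 50 bases after the start of each gene, in RefSeq sequences of the rat build GRCr8. The element was found in 7 of 17 (41.2%) synthetase promoters and in 4 of 19 (21.1%) of the regulators, against 1048 of 27457 (3.82%) of all promoters in the RefSeq table and 160 of 8525 (1.88%) of those of tested genes. Over all genes that rose it was in 62 of 2670 (2.32%), and over all that fell in 42 of 2529 (1.66%). Words for E2F, SRF, AP-1, the estrogen-related receptors and the antioxidant response were searched in the same promoters. That of the antioxidant response, TGACNNNGC, was in 9 of 19 (47.4%) of the regulators, against 1278 of 8525 (15%) of tested genes. It was in 5 of 22 (22.7%) of the antioxidant genes. Other lists ran from 0 of 13 (matrix genes) to 3 of 7 (42.9%, MYC network). That of the estrogen-related receptors, TNAAGGTCA, was in 1 of 29 (3.45%) oxidative phosphorylation promoters, against 44 of 8525 (0.516%) of tested genes. It was in 0 of 20 of the tricarboxylic acid list and 0 of 25 of the fatty acid list. It was in 0.562% of genes that rose and 0.554% of genes that fell. The matches to TGATGNAA are capitalised below for a regulator and a hormone that led the rises and for a synthetase, each read along its own gene from 5′ to 3′: Trib3 at chr3:161275484-161275783 (minus strand), Fgf21 at chr1:105221327-105221626 (minus strand) and Iars at chr17:15193603-15193902 (minus strand).
Trib3: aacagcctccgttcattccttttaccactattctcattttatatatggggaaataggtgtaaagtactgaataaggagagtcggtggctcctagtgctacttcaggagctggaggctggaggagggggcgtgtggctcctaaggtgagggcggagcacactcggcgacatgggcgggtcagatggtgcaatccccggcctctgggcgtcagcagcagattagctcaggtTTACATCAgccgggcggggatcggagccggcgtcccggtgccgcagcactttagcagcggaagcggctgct
Fgf21: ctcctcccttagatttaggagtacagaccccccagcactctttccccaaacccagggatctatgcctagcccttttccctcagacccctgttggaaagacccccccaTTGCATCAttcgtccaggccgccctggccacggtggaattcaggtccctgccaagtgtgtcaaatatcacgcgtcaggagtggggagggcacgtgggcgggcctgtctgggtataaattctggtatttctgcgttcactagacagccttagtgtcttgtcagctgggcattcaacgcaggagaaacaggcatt
Iars: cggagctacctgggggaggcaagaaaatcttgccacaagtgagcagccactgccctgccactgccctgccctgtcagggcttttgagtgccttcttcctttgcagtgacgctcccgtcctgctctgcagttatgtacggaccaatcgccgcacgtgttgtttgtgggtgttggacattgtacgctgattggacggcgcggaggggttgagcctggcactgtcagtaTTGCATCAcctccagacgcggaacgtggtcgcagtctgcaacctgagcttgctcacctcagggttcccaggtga
In Trib3 and Iars the element lay 21 and 24 bases before the start and in Fgf21 143 bases before it. A match describes these letters and is not evidence of binding. The genes shown were picked among carriers that rose. Over the carriers in the lists of regulators, enzymes, transporters and synthetases, the difference ran from 0.08 for the regulator Ppp1r15b to 3.15 for Trib3.

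Among the regulators, Atf4 itself had 708, 761 and 806 FPKM at 50 µM, against 237, 190.0 and 257 FPKM in Vehicle, a rise of 1.74 ± 0.14 (limma adjusted p = 4.0e-08). Ddit3, which encodes CHOP, had 435, 405 and 379 FPKM at 50 µM, against 75.7, 55.3 and 71.2 FPKM in Vehicle and rose by 2.58 ± 0.17 (limma adjusted p = 8.5e-09); it shares its locus in the table with the synthetase Mars. Every library at 50 µM was well above Vehicle for both. Gdf15, a stress hormone that lowers appetite, averaged 243 ± 49 FPKM at 50 µM and 40.5 ± 3.13 FPKM in Vehicle, a rise of 2.54 ± 0.21 (limma adjusted p = 8.1e-08). Sesn2, which reports leucine to mTORC1, rose by 2.18 ± 0.19 (limma adjusted p = 1.4e-07), and Chac1, which degrades glutathione, by 2.18 ± 0.37 (adjusted p = 8.8e-05). Of the kinases that start the response, Eif2ak3 (PERK), Eif2ak4 (GCN2) and Eif2ak2 (PKR) changed by -0.75 ± 0.13 (limma adjusted p = 1.3e-04), -0.87 ± 0.10 (adjusted p = 2.8e-06) and -0.59 ± 0.09 (adjusted p = 3.0e-05), and were the 3 regulators that fell.

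Asns, asparagine synthetase and a standard readout of ATF4, had 172, 198 and 239 FPKM at 50 µM, against 28.3, 26.1 and 40.7 FPKM in Vehicle, a rise of 2.66 ± 0.23 (limma adjusted p = 9.2e-08). The spread within each group was small beside the gap. The mitochondrial folate enzymes Shmt2 and Mthfd2 rose by 2.13 ± 0.13 (limma adjusted p = 3.2e-09) and 2.46 ± 0.19 (adjusted p = 4.2e-08), the serine enzyme Phgdh by 1.92 ± 0.15 (adjusted p = 3.7e-08) and the proline enzyme Pycr1 by 2.42 ± 0.20 (adjusted p = 8.3e-08). Aldh1l2, a mitochondrial formyl-folate dehydrogenase, was the only enzyme of the list that fell, by a difference of -0.96 ± 0.25 (limma adjusted p = 0.00325). Among transporters, Slc7a5 and Slc3a2, which form the leucine carrier, rose by 1.92 ± 0.23 (limma adjusted p = 2.6e-06) and 1.88 ± 0.14 (adjusted p = 2.2e-08), and Slc7a3, a carrier of arginine, averaged 13.9 ± 5.54 FPKM at 50 µM and 1.81 ± 0.433 FPKM in Vehicle, a rise of 2.36 ± 0.32 (adjusted p = 1.0e-05). The glial glutamate carrier Slc1a3 changed by -1.20 ± 0.15 (limma adjusted p = 5.9e-06).

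Glycyl-tRNA synthetase, Gars, led the synthetases with 244, 284 and 309 FPKM at 50 µM, against 64.8, 67.2 and 67.8 FPKM in Vehicle, a rise of 2.04 ± 0.12 (limma adjusted p = 3.0e-09). Wars, Sars and Yars, the synthetases of tryptophan, serine and tyrosine, rose by 2.01 ± 0.12 (limma adjusted p = 3.0e-09), 1.88 ± 0.11 (adjusted p = 2.9e-09) and 1.67 ± 0.13 (adjusted p = 4.0e-08). The libraries of both groups lay close together for these genes, so that differences of more than 1 had an SE near 0.1.

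Chaperones of the endoplasmic reticulum, which are raised when that organelle is under load, did not follow. In that list 11 of 22 fell and 4 rose. Hspa5 (BiP), the main chaperone of the organelle, had 671, 615 and 655 FPKM at 50 µM, against 607, 592 and 720.4 FPKM in Vehicle. The groups overlapped and the difference was 0.02 (limma adjusted p = 0.884), with its sign changing under quantile normalization and without 50 µM replicate 1, Vehicle replicate 1 or Vehicle replicate 2. The disulfide isomerase Pdia4 changed by -1.21 ± 0.11 (limma adjusted p = 1.1e-07) and the lectin-bound degradation factor Derl3 by -1.81 ± 0.29 (adjusted p = 5.4e-05). The rises were the sensors Ern1 (IRE1) and Atf6, by 1.32 ± 0.16 (limma adjusted p = 3.2e-06) and 1.14 ± 0.10 (adjusted p = 1.6e-07), and Herpud1 and Dnajb9, by 1.17 ± 0.20 (adjusted p = 1.1e-04) and 1.00 ± 0.15 (adjusted p = 2.2e-05).

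**Figure D3:**
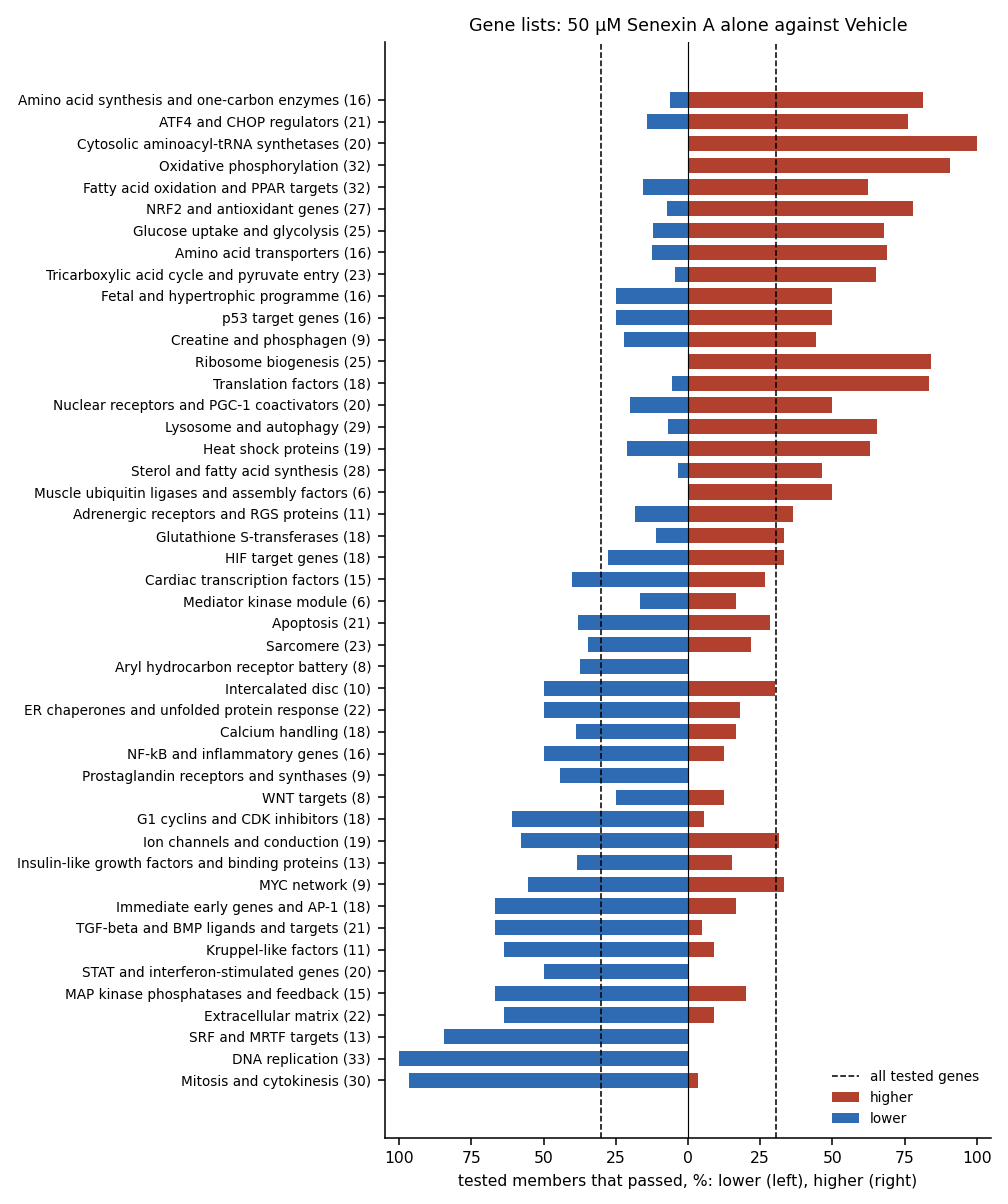
Share of tested members of each gene list that passed as higher (right, red) or lower (left, blue) at 50 µM Senexin A alone against Vehicle, with the number tested in brackets; lists are ordered by median difference and dashed lines mark the shares over all tested genes, 30.5% higher and 30.2% lower. The synthetases and oxidative phosphorylation reach far past the right-hand line, and DNA replication and mitosis past the left-hand one.

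Antioxidant genes rose in 21 of 27 cases and fell in 2. Txnrd1, the cytosolic thioredoxin reductase, had 416, 397 and 397 FPKM at 50 µM, against 84.2, 76.6 and 79.3 FPKM in Vehicle, a rise of 2.32 ± 0.15 (limma adjusted p = 5.4e-09), with no overlap; it shares its locus in the table with Eid3. Sqstm1 (p62), a cargo receptor of autophagy that also releases NRF2, averaged 733 ± 60.5 FPKM at 50 µM and 269.6 ± 23.9 FPKM in Vehicle and rose by 1.44 ± 0.14 (limma adjusted p = 4.2e-07). The drug exporter Abcc4 rose by 1.72 ± 0.13 (limma adjusted p = 2.3e-08), sulfiredoxin (Srxn1) by 1.22 ± 0.17 (adjusted p = 1.6e-05) and transaldolase (Taldo1) by 1.26 ± 0.08 (adjusted p = 3.2e-09). Nqo1, a quinone reductase often used as the readout of NRF2, had 101, 82.5 and 61.5 FPKM at 50 µM, against 176, 176 and 101 FPKM in Vehicle. Its groups overlapped, and it changed by -0.86 ± 0.23 (limma adjusted p = 0.00365), against the direction of the list.

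Glutathione S-transferases were mixed, with 6 higher and 2 lower of 18 (4 lower with quantile normalization or the block), beside 30.5% and 30.2% of all tested genes. The mitochondrial and peroxisomal Gstk1 averaged 72.9 ± 4.68 FPKM at 50 µM and 12.1 ± 1.23 FPKM in Vehicle, a rise of 2.50 ± 0.19 (limma adjusted p = 2.3e-08). Of 19 heat shock proteins 12 rose and 4 fell, and their median of 0.33 turned to -0.05 under quantile normalization. The mitochondrial chaperones Hspe1, Hspa9 and Hspd1 rose by 1.52 ± 0.12 (limma adjusted p = 4.9e-08), 1.5 ± 0.09 (adjusted p = 3.5e-09) and 0.77 ± 0.12 (adjusted p = 4.9e-05), and the small heat shock protein Hspb8 by 1.40 ± 0.15 (adjusted p = 1.0e-06). The lysosomal and autophagy list had 19 rises of 29, or 12 under quantile normalization, including the sialidase Neu1 by 1.23 ± 0.17 (limma adjusted p = 9.6e-06) and the transcription factor Tfe3 by 0.93 ± 0.11 (adjusted p = 3.3e-06).

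The machinery that makes ribosomes rose in 21 of 25 tested genes, none fell, and the median difference was a modest 0.47. Bop1 and Wdr12, partners in the maturation of the large subunit, rose by 1.47 ± 0.12 (limma adjusted p = 5.0e-08) and 1.13 ± 0.12 (adjusted p = 6.3e-07); Bop1 shares its locus in the table with Scx. Polr1b, a subunit of RNA polymerase I, rose by 0.84 ± 0.09 (limma adjusted p = 1.0e-06). In the MYC network, Myc had 22.3, 15.8 and 26.6 FPKM at 50 µM, against 8.25, 4.44 and 9.37 FPKM in Vehicle, a rise of 1.46 ± 0.30 (limma adjusted p = 5.7e-04), without overlap. Mycn and the MYC antagonists Mxd3, Mxd4 and Mxi1 changed by -1.59 ± 0.16 (limma adjusted p = 6.4e-07), -2.52 ± 0.33 (adjusted p = 8.3e-06), -1.16 ± 0.12 (adjusted p = 5.6e-07) and -1.08 ± 0.14 (adjusted p = 9.3e-06). Translation factors rose in 15 of 18, or 8 under quantile normalization. Eif4ebp1, a repressor of cap-dependent initiation, averaged 446 ± 47.4 FPKM at 50 µM and 142 ± 27.8 FPKM in Vehicle, a rise of 1.66 ± 0.14 (limma adjusted p = 5.9e-08), and Eif2b3, a subunit of the exchange factor on which the stress response acts, rose by 1.81 ± 0.14 (adjusted p = 3.1e-08).

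Cell division genes fell nearly without exception. Of 33 DNA replication genes tested 33 fell, against 30.2% of all genes, with a median of -1.48, and of 30 genes of mitosis 29 fell and 1 rose, with a median of -1.73. In RNA from a whole culture, fewer dividing cells and less of these transcripts in each cell cannot be told apart. Vehicle levels were moderate after AraC. Mcm5 had 3.66, 2.23 and 2.54 FPKM at 50 µM, against 25.6, 25.1 and 19.1 FPKM in Vehicle, and Mcm6 had 5.36, 5.2 and 4.4 FPKM at 50 µM, against 39.9, 43.9 and 32 FPKM in Vehicle. The lowest Vehicle library was several times the highest at 50 µM for both.

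Many replication promoters carry sites for E2F, the factors that retinoblastoma protein holds back before DNA synthesis, and the promoters of 3 helicase subunits are printed to show them. The words TTTNGCGC and TTTCCCGC, on both strands in the same window, were found in 13 of 27 (48.1%) replication promoters and 1 of 24 (4.17%) mitosis promoters, against 642 of 27457 (2.34%) of all promoters and 379 of 8525 (4.45%) of those of tested genes. Over all genes that fell the share was 134 of 2529 (5.3%), and over all that rose 119 of 2670 (4.46%). Overlapping matches are joined in capitals below, for Mcm5 at chr19:13488563-13488862 (plus strand), Mcm6 at chr13:42404303-42404602 (minus strand) and Mcm3 at chr9:30733697-30733996 (minus strand).
Mcm5: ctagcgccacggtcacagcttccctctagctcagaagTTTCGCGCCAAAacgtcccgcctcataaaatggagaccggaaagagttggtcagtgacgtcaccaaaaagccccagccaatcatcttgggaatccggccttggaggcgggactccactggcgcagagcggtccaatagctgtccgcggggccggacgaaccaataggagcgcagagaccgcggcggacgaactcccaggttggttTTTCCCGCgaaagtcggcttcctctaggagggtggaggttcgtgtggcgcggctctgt
Mcm6: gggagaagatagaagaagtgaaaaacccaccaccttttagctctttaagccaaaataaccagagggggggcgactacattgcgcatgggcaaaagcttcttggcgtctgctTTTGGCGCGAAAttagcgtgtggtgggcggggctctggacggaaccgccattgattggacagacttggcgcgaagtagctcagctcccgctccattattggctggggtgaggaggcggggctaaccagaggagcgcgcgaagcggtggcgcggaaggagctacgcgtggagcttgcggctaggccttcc
Mcm3: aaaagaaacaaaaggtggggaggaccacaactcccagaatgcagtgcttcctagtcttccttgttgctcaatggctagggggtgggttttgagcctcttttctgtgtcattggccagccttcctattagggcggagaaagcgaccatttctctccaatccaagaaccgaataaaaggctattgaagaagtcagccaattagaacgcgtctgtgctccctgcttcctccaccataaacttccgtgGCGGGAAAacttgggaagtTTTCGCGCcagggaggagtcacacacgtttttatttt
The replication list holds genes known from other systems as targets of E2F, so the share describes the list. It was drawn up by function, with earlier results of these data known.

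E2f1 itself averaged 6.86 ± 0.833 FPKM at 50 µM and 33.5 ± 6.17 FPKM in Vehicle, a change of -2.12 ± 0.16 (limma adjusted p = 2.1e-08). Rrm2, which makes deoxynucleotides, changed by -2.57 ± 0.18 (limma adjusted p = 1.6e-08), Mcm3 by -2.54 ± 0.17 (adjusted p = 6.6e-09) and the licensing factor Cdc6 by -2.19 ± 0.16 (adjusted p = 1.9e-08). In mitosis, Top2a, the topoisomerase of condensing chromosomes, had 5.62, 5.45 and 3.95 FPKM at 50 µM, against 34.7, 37.5 and 29.5 FPKM in Vehicle, a change of -2.54 ± 0.14 (limma adjusted p = 2.0e-09). Ccna2 (cyclin A2), Mki67 (the Ki-67 antigen), Kif23 (a kinesin of the midbody) and Cdc20 (an activator of the anaphase-promoting complex) changed by -2.54, -2.44, -2.40 and -2.12, each with a limma adjusted p of at most 1.1e-07. The phosphatase Cdc25b was the exception, higher by 0.78 ± 0.15 (limma adjusted p = 3.6e-04).

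Upstream of S phase, 11 of 18 cyclins, kinases and inhibitors fell and 1 rose, or 3 with the block. Cyclin E2 (Ccne2) and the kinase Cdk2 changed by -2.21 ± 0.15 (limma adjusted p = 1.2e-08) and -1.32 ± 0.14 (adjusted p = 6.0e-07), and cyclins D1 and D3 (Ccnd1, Ccnd3) by -1.03 ± 0.20 (adjusted p = 3.5e-04) and -1.13 ± 0.12 (adjusted p = 9.7e-07). Ccnd2, the rise, averaged 181 ± 42.6 FPKM at 50 µM and 110.1 ± 9.74 FPKM in Vehicle and was higher by 0.69 ± 0.14 (limma adjusted p = 5.3e-04). Cdkn1a (p21), an inhibitor that p53 induces, had 224, 239 and 251 FPKM at 50 µM, against 204, 217 and 202 FPKM in Vehicle. All 3 libraries at 50 µM lay slightly above Vehicle. Its difference of 0.19 ± 0.10 (limma adjusted p = 0.116) passed with the block (adjusted p = 0.0251) and changed sign under quantile normalization. Other targets of p53 rose in 8 of 16 cases and fell in 4, beside 30.5% and 30.2% of all tested genes. Their median was 0.50, or 0.32 without Vehicle replicate 1. Ccng1, Bax and Mdm2 rose by 1.10 ± 0.11 (limma adjusted p = 6.4e-07), 1.07 ± 0.07 (adjusted p = 1.2e-08) and 0.62 ± 0.10 (adjusted p = 4.3e-05).

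Genes that answer growth factors within minutes were lower after the 48 h. In the immediate early list 12 of 18 fell and 3 rose. Besides Egr1, Fos averaged 2.11 ± 0.789 FPKM at 50 µM and 6.07 ± 2.24 FPKM in Vehicle, a change of -1.16 ± 0.29 (limma adjusted p = 0.00228), and Junb changed by -0.94 ± 0.14 (adjusted p = 2.1e-05). Kruppel-like factors fell in 7 of 11 cases. Klf2, a factor known from flow-exposed endothelium, had 6.37, 2.88 and 4.72 FPKM at 50 µM, against 32.4, 23 and 34.9 FPKM in Vehicle, a change of -2.49 ± 0.29 (limma adjusted p = 2.4e-06), with no overlap. Klf10, an early target of TGF-beta, changed by -1.35 ± 0.20 (limma adjusted p = 2.7e-05). The feedback phosphatases and adaptors of the MAP kinase pathway fell in 10 of 15, among them Dusp1 (-1.49 ± 0.14, limma adjusted p = 2.5e-07), Spred1 (-1.53 ± 0.24, adjusted p = 4.1e-05) and Spry2 (-1.02 ± 0.14, adjusted p = 1.0e-05), whereas Dusp8 rose by 1.04 ± 0.19 (adjusted p = 2.1e-04).

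NF-kB and inflammatory genes had 8 falls and 2 rises of 16. Nfkbia, the inhibitor that NF-kB itself induces, had 7.32, 7.51 and 7.13 FPKM at 50 µM, against 20.4, 18.7 and 24 FPKM in Vehicle, a change of -1.40 ± 0.11 (limma adjusted p = 3.1e-08). The groups stood apart. The adhesion molecule Icam1 changed by -1.10 ± 0.21 (limma adjusted p = 3.0e-04), and the chemokine Ccl7 rose by 1.46 ± 0.39 (adjusted p = 0.0041). In the STAT and interferon list 10 of 20 fell and none rose, although 1 passed as higher under quantile normalization. Irf9 and Irf7, factors that carry interferon signals, changed by -1.48 ± 0.19 (limma adjusted p = 7.6e-06) and -1.06 ± 0.28 (adjusted p = 0.00409), and Socs3, a feedback inhibitor of STAT3, averaged 0.286 ± 0.17 FPKM at 50 µM and 2.37 ± 0.971 FPKM in Vehicle, a change of -1.35 ± 0.27 (adjusted p = 3.9e-04).

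More matrix, TGF-beta and SRF target genes fell than rose. Of 22 matrix genes 14 fell and 2 rose (median -0.91), of 21 TGF-beta and BMP genes 14 fell and 1 rose (none without 50 µM replicate 2 or Vehicle replicate 1; median -0.65), and of 13 targets of SRF with its coactivator MRTF 11 fell and none rose (median -1.08). Fibroblast markers fell in 5 of 11 cases (3 without Vehicle replicate 3), beside 30.2% of all tested genes, and none rose. Smooth muscle and pericyte markers fell in 4 of 9 and none rose, or 2 rose with the block and 1 under quantile normalization. The summed levels of both lists did not overlap between the groups, as given above, but a few large transcripts weighed most in them. Acta2 and Tagln were the largest in the smooth muscle and pericyte sum, and Col1a1 and Col3a1 in the fibroblast sum. Other members overlapped. Pdgfrb had 52.3, 29.1 and 36.3 FPKM at 50 µM, against 48.3, 29.8 and 41.2 FPKM in Vehicle. Tcf21 had 17.8, 15.2 and 14.4 FPKM at 50 µM, against 9.79, 12.3 and 18.8 FPKM in Vehicle. The part of these cell types in the result was not tested. No fibroblast marker was at the floor in all 3 libraries of either group, but Col1a2 was practically undetected. It had at most 0.0162 FPKM at 50 µM and 0.0155 FPKM in Vehicle, beside 384 to 1184 FPKM for Col1a1 over both groups.

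Tnc, the stress-induced matrix protein tenascin C, had 13.2, 12.8 and 9.5 FPKM at 50 µM, against 60.4, 49.1 and 56.7 FPKM in Vehicle, a change of -2.14 ± 0.20 (limma adjusted p = 2.0e-07). Fn1, fibronectin, had 154, 118 and 129 FPKM at 50 µM, against 369, 337 and 440.0 FPKM in Vehicle and changed by -1.51 ± 0.21 (limma adjusted p = 1.3e-05). No library at 50 µM reached any of Vehicle for either. Lox, which crosslinks collagen, and Eln, elastin, changed by -2.00 ± 0.24 (limma adjusted p = 3.1e-06) and -1.84 ± 0.43 (adjusted p = 0.00144); Lox shares its locus in the table with Zfp474. The ligands Tgfb1 and Tgfb3 changed by -1.25 ± 0.13 (limma adjusted p = 7.4e-07) and -1.20 ± 0.19 (adjusted p = 4.7e-05), and the inhibitor Smad6, which BMP signals induce, by -1.12 ± 0.20 (adjusted p = 1.5e-04). Of the prostaglandin genes, 4 of 9 fell (2 with a minimum of 5 FPKM), beside 30.2% of all tested genes. Ptgfr fell the most, followed by the receptor Ptger3 (-1.11 ± 0.21, limma adjusted p = 2.7e-04).

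Among targets of SRF, a factor that binds the CArG box, Actg1 had 392, 319 and 245 FPKM at 50 µM, against 907, 837 and 901 FPKM in Vehicle. Tagln (transgelin) and Cald1 (caldesmon), proteins of smooth muscle, changed by -1.42 ± 0.18 (limma adjusted p = 5.3e-06) and -1.63 ± 0.15 (adjusted p = 2.6e-07), and the crosslinker Flna by -1.34 ± 0.16 (adjusted p = 3.1e-06). Acta1 is a target of SRF too but belongs to the fetal list here, and it moved the other way, so the promoters of both actins are printed for comparison. A CArG box was found, both strands searched, in 1 of 9 (11.1%) of the promoters of the SRF and MRTF list and in 4 of 15 (26.7%) of those of the fetal list, against 451 of 27457 (1.64%) of all promoters and 107 of 8525 (1.26%) of those of tested genes. The box was also in 3 of 13 (23.1%) of the immediate early list, of which 12 of 18 fell. In the sarcomere list it was in 3 of 19 (15.8%). Over all genes that rose it was in 36 of 2670 (1.35%), and over all that fell in 34 of 2529 (1.34%). The matches are in capitals, for Acta1 at chr19:68784145-68784444 (minus strand) and for Actg1 at chr10:106120902-106121201 (minus strand).
Acta1: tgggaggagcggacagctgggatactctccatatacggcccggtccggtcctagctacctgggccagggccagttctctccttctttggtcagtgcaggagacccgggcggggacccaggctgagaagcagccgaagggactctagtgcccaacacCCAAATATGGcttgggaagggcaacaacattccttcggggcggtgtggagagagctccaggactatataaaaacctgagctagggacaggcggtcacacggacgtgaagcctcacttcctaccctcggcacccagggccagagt
Actg1: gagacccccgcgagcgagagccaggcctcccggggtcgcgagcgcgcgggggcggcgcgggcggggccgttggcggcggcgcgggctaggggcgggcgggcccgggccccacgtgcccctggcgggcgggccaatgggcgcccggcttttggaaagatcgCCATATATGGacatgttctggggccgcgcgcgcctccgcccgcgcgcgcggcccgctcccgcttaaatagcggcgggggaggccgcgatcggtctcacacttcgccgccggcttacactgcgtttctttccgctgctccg
The box lay 94 bases before the start in Acta1 and 90 bases before it in Actg1. Acta1 rose and Actg1 fell, each with a box in its promoter.

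Dose was compared directly, 50 µM against 10 µM alone. Of 10478 genes, 5276 (50.4%) passed, 2663 higher (25.4%) and 2613 lower (24.9%) at 50 µM. Trib3 had 123, 127 and 150.0 FPKM at 50 µM, against 16.4, 10.0 and 24.5 FPKM at 10 µM, and Fgf21 9.9, 7.82 and 12.1 FPKM at 50 µM, against 0.744, 0.351 and 0.339 FPKM at 10 µM. The 10 µM libraries of both genes overlapped those of Vehicle. Casp4, an inflammatory caspase, had 104, 127 and 150.4 FPKM at 50 µM, against 15.2, 11.3 and 18.8 FPKM at 10 µM, a difference of 3.00 ± 0.24 (limma adjusted p = 1.3e-07). Acot2, Ifi27l2b and Cdh17 were higher at 50 µM than at 10 µM by 3.74 ± 0.17 (limma adjusted p = 7.6e-10), 3.70 ± 0.31 (adjusted p = 1.8e-07) and 2.89 ± 0.18 (adjusted p = 1.9e-08).

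In the stress response lists the doses lay apart. Of 20 synthetases 19 were higher at 50 µM than at 10 µM, as were 17 of 21 regulators, 14 of 16 enzymes and 21 of 27 antioxidant genes. In replication 31 of 33 genes and in mitosis 28 of 30 were lower at 50 µM. In oxidative phosphorylation, 10 of 32 subunits were higher and 1 lower at 50 µM, beside 25.4% higher and 24.9% lower of all genes. With the block these were 16 and 3, and under quantile normalization 7 and 6. Against Vehicle, 1696 genes (16.2%) passed at 10 µM, 961 higher (9.17%) and 735 lower (7.01%), among them 28 of the subunits higher and 3 of the synthetases. The median difference of the subunits was 0.58 at 10 µM and 0.73 at 50 µM, while that of the synthetases was 0.17 at 10 µM and 1.23 at 50 µM. These differences share the Vehicle libraries.

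Contractile genes gave the opposite order. In the sarcomere list 12 of 23 genes were lower at 50 µM than at 10 µM and 1 was higher, and the median against Vehicle was 0.41 at 10 µM and -0.17 at 50 µM. Myh7 had 44.4, 37.1 and 104 FPKM at 50 µM, against 831, 967 and 1294 FPKM at 10 µM, a difference of -4.16 ± 0.50 (limma adjusted p = 5.7e-06). The 10 µM libraries overlapped those of Vehicle. Dhrs7c, a dehydrogenase of the sarcoplasmic reticulum, had 23.9, 27.2 and 43.9 FPKM in Vehicle, 77.4, 118 and 134 FPKM at 10 µM and 9.82, 17.5 and 9.67 FPKM at 50 µM. The 10 µM libraries were above the others and the 50 µM libraries below them. It was lower at 50 µM than at 10 µM by a difference of -3.07 ± 0.33 (limma adjusted p = 2.3e-06). Against Vehicle its difference was 1.77 ± 0.33 (limma adjusted p = 0.00214) at 10 µM and -1.29 ± 0.33 (adjusted p = 0.00311) at 50 µM. Corin, Ptgfr and Tmem71 were lower at 50 µM than at 10 µM by differences of -3.37 ± 0.24 (limma adjusted p = 3.7e-08), -3.20 ± 0.19 (adjusted p = 1.0e-08) and -2.78 ± 0.41 (adjusted p = 4.7e-05), and so was Mgp, the calcification inhibitor matrix Gla protein (-2.77 ± 0.23, adjusted p = 1.5e-07). Acta1 had 1333, 1683 and 1396 FPKM at 50 µM, against 1549, 1088 and 870.0 FPKM at 10 µM, and the groups overlapped. Its difference of 0.36 ± 0.18 (limma adjusted p = 0.0985) passed with the block (adjusted p = 0.0274) and without 10 µM replicate 1 (adjusted p = 0.00723).

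**Figure D4:**
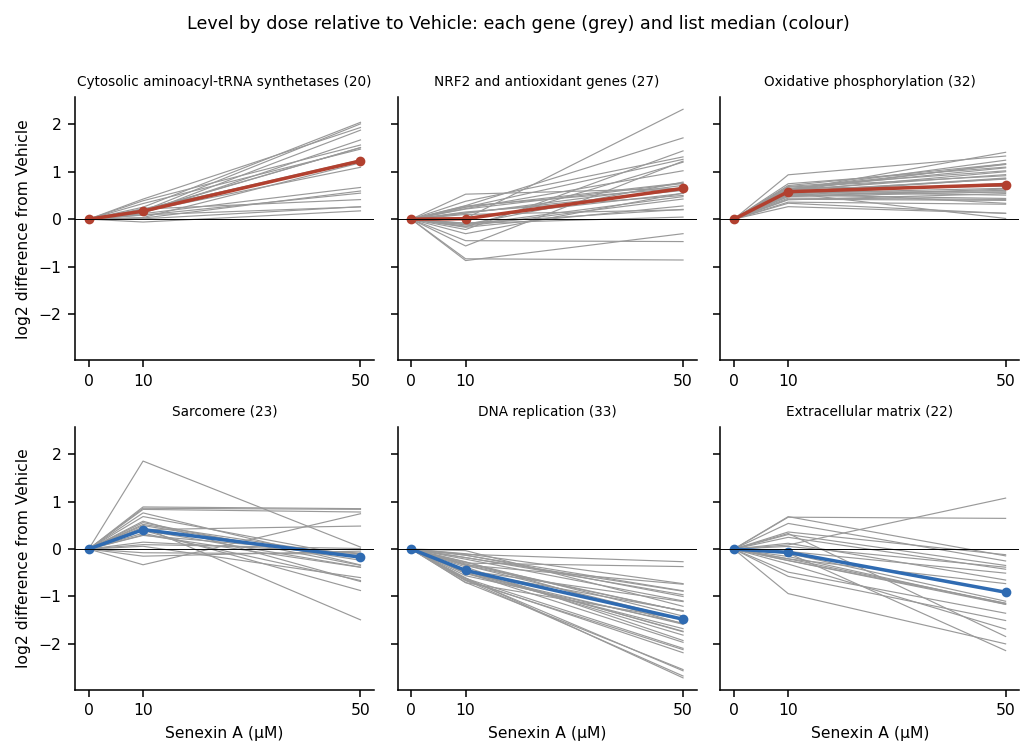
Difference of mean log2(FPKM + 1) from Vehicle at 0, 10 and 50 µM Senexin A alone for the tested genes of 6 lists (number in brackets); grey lines are genes and the coloured line is the list median, red where it is above 0 at 50 µM and blue where it is below. The synthetases stay near 0 at 10 µM and reach a median of 1.23 at 50 µM, oxidative phosphorylation reaches 0.58 at 10 µM already, and the sarcomere median is 0.41 at 10 µM and -0.17 at 50 µM.

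The response to 50 µM was next set beside the response to the same dose in the presence of PE, which stimulates alpha1-adrenergic receptors and so makes myocytes hypertrophy. Those groups share no library with 50 µM alone and Vehicle. Against PE alone, 5939 genes (56.7%) passed in PE with 50 µM, 29.3% higher and 27.4% lower. Of the 3192 genes that rose without PE, 2388 (74.8%) also rose with PE, which is 77.9% of the 3065 that rose there. Of the 3169 that fell without PE, 2303 (72.7%) also fell with PE, 80.1% of the 2874 there. Opposite calls were made for 56 genes higher without PE and lower with it, and for 20 genes lower without PE and higher with it. Across the 10478 genes the differences correlated with r = 0.846, a description over genes, which are not independent replicates.

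The difference between the responses was tested for each gene, and 734 (7.01%) passed: 235 (2.24%) with a higher response in PE and 499 (4.76%) with a lower one. With the replicate number as a block, which pairs these libraries, 1690 passed, and with 1 library left out 392 (without Vehicle replicate 3) to 921 (without PE with 50 µM replicate 2). Acta1 stood out, with 1534, 1627 and 1309 FPKM in PE with 50 µM, against 3395, 3002 and 2837 FPKM in PE alone. In PE the drug lowered it and without PE raised it, and the responses differed by -4.07 ± 0.25 (limma adjusted p = 1.3e-07). With 50 µM its level overlapped between the backgrounds, and without the drug PE stood far above Vehicle. Nppb, raised by 50 µM without PE, had 3451, 3929 and 3027 FPKM in PE with 50 µM, against 5434, 5318 and 4911 FPKM in PE alone, and a difference between responses of -2.05 ± 0.46 (limma adjusted p = 0.0144), lost with no filter on low values (adjusted p = 0.052) and under quantile normalization (adjusted p = 0.0602). Tceal7, a transcription elongation factor A-like protein, had 0.638, 0.673 and 1.21 FPKM in PE with 50 µM, against 18.7, 25 and 27.9 FPKM in PE alone, 0.947, 1.45 and 1.56 FPKM at 50 µM alone and 2.37, 0.87 and 0.784 FPKM in Vehicle, a difference between responses of -3.79 ± 0.42 (limma adjusted p = 1.3e-04). Only PE alone stood high.

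Further lower responses in PE were those of Bex1 (-2.40 ± 0.31, limma adjusted p = 4.0e-04), Yipf7 (-2.25 ± 0.45, adjusted p = 0.00716), the actin-binding protein Xirp2 (-2.24 ± 0.37, adjusted p = 0.00229) and Tppp, a protein of microtubules (-2.20 ± 0.42, adjusted p = 0.00551). Higher responses were led by Nap1l5 with 2.81 ± 0.17 (limma adjusted p = 1.3e-07), which shares its locus in the table with Herc3, and Neil2, a DNA glycosylase, with 2.24 ± 0.28 (adjusted p = 2.9e-04). Nap1l5 had 45.2, 48.4 and 40.6 FPKM in PE with 50 µM, against 7.08, 7.05 and 6.21 FPKM in PE alone, 3.29, 4.06 and 4.12 FPKM at 50 µM alone and 3.68, 5.03 and 5.73 FPKM in Vehicle. It was high in 1 of these 4 groups. Cxcr4, a chemokine receptor, Abcg1, a sterol exporter, Atp6ap1l and the kinase Map2k6 had differences of 2.07 ± 0.49 (limma adjusted p = 0.0198), 2.06 ± 0.49 (adjusted p = 0.019), 1.81 ± 0.28 (adjusted p = 0.00143) and 1.79 ± 0.37 (adjusted p = 0.00965). The calls for Cxcr4 and Abcg1 were lost with no filter on low values, and that for Cxcr4 also without 50 µM replicate 3 or Vehicle replicate 3.

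By list, the mitochondrial response was smaller in PE. In oxidative phosphorylation 17 of 32 genes had a lower response in PE, against 4.76% of all genes, and the median response was 0.07 in PE and 0.73 without it. That count was 31 with the block, and with 1 library left out it ran from 7 (without Vehicle replicate 3) to 28 (without PE with 50 µM replicate 2). In the sarcomere list the count was 10 of 23, with median responses of -0.83 in PE and -0.17 without it, but under quantile normalization 5 had a lower and 2 a higher response. Without Vehicle replicate 3 the count was 6, and without 50 µM replicate 1 it was 16. No synthetase and no enzyme of amino acid supply passed the test of the difference, whereas with the block 1 synthetase and 4 enzymes had a higher response in PE and 1 enzyme a lower one. The median response in PE was 1.41 for the synthetases and 1.97 for the enzymes. In replication 5 of 33 genes had a higher response in PE, that is, a smaller fall (8 with the block, 1 without PE replicate 1). Mcm5 was among them, with a difference between responses of 0.86 ± 0.20 (limma adjusted p = 0.0187) that was lost without PE replicate 1 (adjusted p = 0.053) or without 50 µM replicate 2 (adjusted p = 0.0501).

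**Figure D5:**
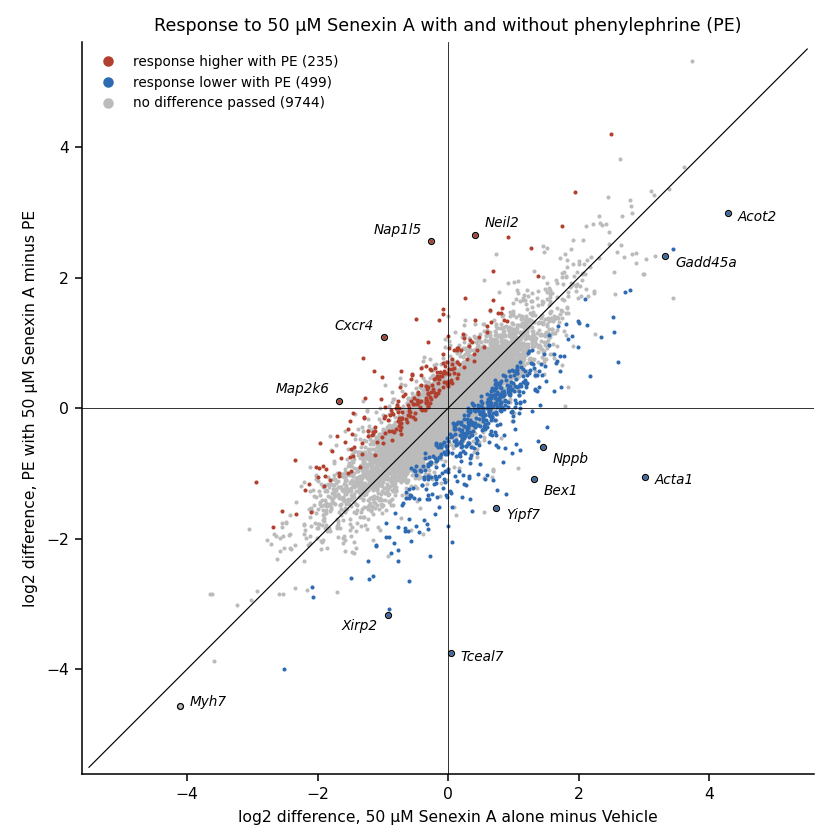
Response of each tested gene to 50 µM Senexin A in PE (vertical axis, PE with 50 µM minus PE) and without PE (horizontal axis, 50 µM alone minus Vehicle), as differences of mean log2(FPKM + 1); coloured points passed the test of the difference between responses. Most genes lie along the line of equal response (r = 0.846), and Acta1 lies far below it at 3.02 without PE and -1.05 in PE.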

How the data were processed

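FPKM values per gene for 18 libraries of polyadenylated RNA, in 1 table deposited by the authors, came from TruSeq V2 libraries; Bowtie2, Cufflinks and the rat build rn5 are named in the submitters' processing notes, with no versions. How strand was treated in counting is not given in the sources used here. There were 17303 rows, of which 1881 share a locus with another row and have uncertain levels, and 27.4% of all values were at a floor of 0.01 FPKM. FPKM depends on the composition of each library and carries no total read number.

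The 10478 rows that reached 1 FPKM in 3 libraries or more were tested on log2(FPKM + 1) with limma 3.58.1 (R 4.3.3), with a variance trend, all 6 groups in 1 model (12 residual degrees of freedom) and Benjamini-Hochberg adjustment. The response in PE minus the response without PE was tested as an interaction. The procedure was tested on simulated data, drawn without the pairing by replicate number. Of 100 genes changed by 0.5 on the log2 scale 58 were recovered, and of 100 changed by 1, 95. The changed genes were all above 5 FPKM in Vehicle, and the rest of the 10380 genes tested there were left unchanged. These rates therefore do not describe genes at low level or data in which most genes change. There were 7 false calls. Tables and plots used Python 3.11.15, pandas 2.3.3 and matplotlib 3.10.9. Promoters come from RefSeq, build GRCr8; gene positions in the table were not converted to it.

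Named genes were the 12 largest rises and 12 largest falls among genes that passed with no overlap of the groups and a group mean of 5 FPKM or more, 6 in each direction for dose and for PE background, a panel of 12 heart and Mediator genes, and up to 6 members per list that passed, plus members that did not pass where their role was needed; some genes that fall under this rule are not reported here. Aldh1l2, Slc1a3, Cdc25b, Ccnd2, Atf4, the 3 eIF2 kinases and Dhrs7c against Vehicle were named for their direction after their values were seen. The groups, members and gene lists were chosen with earlier results of these data known.

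Libraries with the same replicate number deviated together (r = 0.243 to 0.375 for the 3 pairs of 50 µM and Vehicle, -0.304 to -0.021 for pairs with different numbers; 0.213 to 0.587 over the 45 pairs of all groups), so the number, which the labels do not explain, pairs the libraries, and a fit with it as a block was an alternative. Other alternatives were pseudocounts of 0.1 and 0.5, no filter, a minimum of 5 FPKM, quantile normalization, median-ratio scaling, the compared groups alone, no trend, a minimum log2 fold change of 1, and each library left out in turn.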

Additional observations from a re-analysis of the deposited data

Results flagged for a closer look

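The test of the response to 50 µM in PE minus the response without PE passed for 734 genes, and the named genes among them are given here with that difference on the log2 scale. It was -4.07 for Acta1, -3.79 for Tceal7, -2.40 for Bex1, -2.25 for Yipf7, -2.24 for Xirp2, -2.20 for Tppp and -2.05 for Nppb. Leading rises at 50 µM alone that had a lower response in PE were Acot2 (-1.30), Trim50 (-1.0) and Gadd45a (-0.99), and the stretch-responsive Ankrd1 had a difference of -0.86. Positive differences were 2.81 for Nap1l5, 2.24 for Neil2, 2.07 for Cxcr4, 2.06 for Abcg1, 1.81 for Atp6ap1l, 1.79 for Map2k6 and 0.86 for the helicase subunit Mcm5.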

How the results depend on the processing

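The count of genes changed by 50 µM against Vehicle (6361) was 403 when a log2 change above 1 was required by the test, and with 1 library left out it ran from 5738 (without Vehicle replicate 3) to 6102 (without 50 µM replicate 1). The count between doses (5276) was 152 at that minimum change and 4493 to 5038 with 1 library left out. The count of genes whose response differed in PE (734) was 4 at that minimum change, 1690 with the replicate block, and 392 to 921 with 1 library left out. The other alternatives kept each count within 1.5 times. No named gene that passed changed sign in any of them or lost its call with the block. At the minimum log2 fold change of 1, 83 of the 181 named genes that had passed against Vehicle kept their call. Between doses 12 of 12 did, and for the difference in PE 3 of 14. In the lists, 0 oxidative phosphorylation subunits, 1 ribosome biogenesis gene and 9 synthetases still passed as higher there, and 17 replication genes as lower. The block changed the calls of Ankrd1, Cdk19, Cdkn1a and, between doses, Acta1, as given above, and no other call of a named gene. Differences of genes that had not passed changed sign under quantile normalization for Ankrd1 (-0.20), Med12 (0.11), Gata4 (-0.15), Nkx2-5 (-0.15), Hspa5 (-0.27) and Cdkn1a (-0.10). With 1 library left out, the difference ran from -0.30 to 0.08 for Myl2, -0.05 to 0.14 for Gata4, -0.31 to 0.26 for Ppargc1a and -0.03 to 0.11 for Hspa5; for none of these was the cause tested. Depth is unknown, so no limit of detection is given beyond the floor of the table.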

Other observations

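Insulin-like growth factor genes included the rise of Igfbp5 given above and that of Irs2, an adaptor of the insulin receptor, which averaged 39.8 ± 7.33 FPKM at 50 µM and 10.2 ± 2.91 FPKM in Vehicle and rose by 1.88 ± 0.22 (limma adjusted p = 2.0e-06). Igfbp6 changed by -1.30 ± 0.39 (limma adjusted p = 0.00839). Of 13 genes tested in that list 2 rose and 5 fell, or 2 fell without Vehicle replicate 3 and 3 without 50 µM replicate 2. Over all tested genes 30.5% rose and 30.2% fell. Among hypoxia genes the angiogenic factor Vegfa had 226, 213 and 211 FPKM at 50 µM, against 73.9, 67.5 and 76.9 FPKM in Vehicle, a rise of 1.56 ± 0.11 (limma adjusted p = 9.7e-09), and the groups did not overlap. The hydroxylase Egln3, which marks HIF for degradation, rose by 1.30 ± 0.25 (limma adjusted p = 2.7e-04), and the mitophagy receptor Bnip3 by 0.94 ± 0.12 (adjusted p = 7.2e-06). Of 18 genes in the list 6 rose and 5 fell, shares close to those over all genes (30.5% and 30.2%).

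Of 21 apoptosis genes 6 rose (3 without Vehicle replicate 2) and 8 fell, shares near the 30.5% and 30.2% of all tested genes. The survival gene Bcl2l1 (Bcl-xL) rose by 1.17 ± 0.10 (limma adjusted p = 1.4e-07), and the killers of the BH3-only class Bik and Bcl2l11 (Bim) changed by -1.61 ± 0.30 (adjusted p = 2.3e-04) and -1.32 ± 0.25 (adjusted p = 2.3e-04). The creatine transporter Slc6a8 rose by 1.53 ± 0.14 (limma adjusted p = 1.5e-07), and Gatm, which makes the creatine precursor, changed by -1.16 ± 0.32 (adjusted p = 0.00544).

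Genes that rose were shorter and higher in level than those that fell. The median gene length in RefSeq (GRCr8) was 17.1 kb for genes that rose, 32.2 kb for genes that fell and 23.6 kb for all genes tested. The median level was 38.9 FPKM at 50 µM and 24.9 FPKM in Vehicle for genes that rose, and 9.06 FPKM at 50 µM and 15.9 FPKM in Vehicle for genes that fell. Both sets were chosen by the difference between these same libraries, so the gap at 50 µM follows in part from that choice. The part of length and level in the responses was not tested.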
